A study of Mus musculus with 2 samples.

Results

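Connexins and cadherins form the channels and the adhesive junctions between the cells of the vessel wall, and 9 of their genes, out of 31053 genes counted, were followed in cultured aortic cells. They were the connexin genes *Gja1*, *Gja4*, *Gja5* and *Gjc1* and the cadherin genes *Cdh2*, *Cdh5*, *Cdh6*, *Cdh11* and *Cdh13*. The genes were listed by name, and none of them was used to sort the cells into classes. Each gene was compared between 4 classes of cells, by its level and by the share of cells in which it was found.

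Connexins assemble into gap junction channels, through which ions and small molecules pass from cell to cell. In large arteries, Cx37 (encoded by *Gja4*) and Cx40 (*Gja5*) are known from the endothelium, whereas Cx43 (*Gja1*) and Cx45 (*Gjc1*) are known from smooth muscle. Classical cadherins bind their like on the neighboring cell and are tied to actin through catenins; VE-cadherin (*Cdh5*) is the endothelial member and N-cadherin (*Cdh2*) a major one of smooth muscle.

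The samples were 2 single-cell RNA-seq libraries, biological replicates 1 and 2, of primary vascular smooth muscle cells (VSMCs) from the aorta of wild type mice. The cells had been in culture in full medium for 5 days, there was 1 condition, and no other genotype or treatment entered. Mice other than atherosclerotic ones had a pure C57BL6/N background, and males and females were used in the study. mRNA molecules were counted by unique molecular identifiers (UMIs), which summed to 127949633 in replicate 1 and to 132561822 in replicate 2.

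A barcode counted as a cell where it held 300 genes or more and 3000 UMIs or more, less than 20% of them mitochondrial, which left 4866 cells in replicate 1 and 6824 cells in replicate 2. The median was 22234.5 and 16310 UMIs per cell, and 9 barcodes occurred in both libraries. Endothelial cells (ECs) had at least 2 UMIs of at least 2 of the 4 genes *Pecam1*, *Cldn5*, *Egfl7* and *Emcn*, which held for 101 and 143 cells. Cycling cells, 1564 and 1889, had at least 2 UMIs of at least 2 of the 4 genes *Mki67*, *Top2a*, *Cdk1* and *Ube2c*. The remaining cells were split by *Myh11*, the smooth muscle myosin heavy chain that contractile VSMCs express. Those with at least 5 *Myh11* UMIs are called Myh11-high (298 and 523 cells), and those with at most 1 are called Myh11-low (2680 and 3988 cells). The 223 and 281 cells in between entered no class. Median depth was 14416 and 10110 UMIs in ECs, 28296.5 and 20999 in cycling cells, 23765 and 18206 in Myh11-high cells, and 19619.5 and 14438 in Myh11-low cells.

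The classes were checked against marker genes that had not defined them. The 8 endothelial genes used as a check (such as *Kdr* and *Tie1*) summed to 1377 and 1383 CPM in ECs and to between 10.7 and 32.7 CPM in the other classes. Levels are given as CPM, a gene's UMIs scaled to the sum of all UMIs of a class and library, and they are compared within a gene, not between genes. The 8 contractile genes (such as *Acta2* and *Cnn1*) summed to 24928 and 26934 CPM in Myh11-high cells and to 6224 and 3409 CPM in Myh11-low cells. They still summed to 2594 and 1408 CPM in ECs, where *Acta2* was found in a mean of 73.2% of cells. The 8 further cell cycle genes summed to 1419 and 1525 CPM in cycling cells. Genes of modulated VSMCs (7, such as *Lum* and *Spp1*) summed to between 4036 and 7111 CPM in all classes, most of it *Mgp* (mean 3444 to 5571 CPM by class). The single genes had no common direction. In Myh11-high and Myh11-low cells, the means were 47.9 and 141 CPM for *Lum*, 31.5 and 116 for *Pdgfra*, and 151 and 524 for *Dcn*. They were 66.6 and 73.0 for *Vcam1*, 323 and 88.1 for *Spp1*, 75.6 and 68.7 for *Tnfrsf11b*, and 4619 and 3937 for *Mgp*. Macrophage markers (6 genes) reached at most 23.8 CPM and Schwann cell markers (4 genes) at most 33.6 CPM in any class and library. In ECs the macrophage sum was 8.96 and 23.8 CPM. *Cd68* had a mean of 13.5 CPM there against 1.17 to 3.19 CPM in the other classes. *Csf1r* was not higher in ECs, and *Ptprc*, *C1qa*, *C1qb* and *Adgre1* had 0 UMIs there. ECs stood above the other classes in the summed markers of lymphatic endothelium (3 genes, 126 and 88.3 CPM against at most 4.81). The sums were also higher for epithelium and mesothelium (5 genes, 50.4 and 76.1 CPM against at most 9.81). For adventitial fibroblasts they were 320 and 439 CPM against at most 57.0 (4 genes). Single genes of these lists went the other way. *Dpt* (mean 3.47 CPM in ECs against 12.0 to 27.5), *Clec3b* and *Krt19* had their lowest mean level in ECs. By share, *Lyve1* was found in a mean of 2.33% of ECs against 4.11% to 6.92% of cells in the other classes. By level its mean was higher in ECs, at 6.73 CPM against 2.62 to 3.92 CPM, with 22 UMIs in 3 ECs of replicate 1. *Krt18* alone gave 50.4 and 72.6 CPM and *Cd34* alone 292 and 420 CPM in ECs, and both are also known from ECs. *Pi16*, the remaining gene of the adventitial list, was also higher in ECs, at a mean of 18.98 CPM against 1.03 to 2.87 CPM. *Epcam*, *Msln* and *Upk3b* had 0 UMIs in ECs. The further cell cycle genes stood at 417 and 476 CPM in ECs against at most 93.4 CPM in both *Myh11* classes. The part of these differences, and of the contractile UMIs in ECs, in the results on ECs was not tested.

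Levels were tested on the UMI sums per class and library (8 sums), since single cells of a library share 1 culture. On 14201 genes, edgeR's quasi-likelihood test was run with Benjamini-Hochberg adjustment over all of them, and a gene is said to rise or fall where its adjusted p is under 0.05. Fold changes are on the log2 scale with their standard error (SE). An exact permutation test of 2 against 2 libraries cannot go below p = 0.33. The main fit treated the 8 sums as independent, although the classes of a library share 1 culture. Its p-values rest on the spread between the 2 biological replicates within classes. A paired fit, with the library as a block, takes out the part of this spread that classes share. Its p-values rest on what is left.

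**Figure D1:**
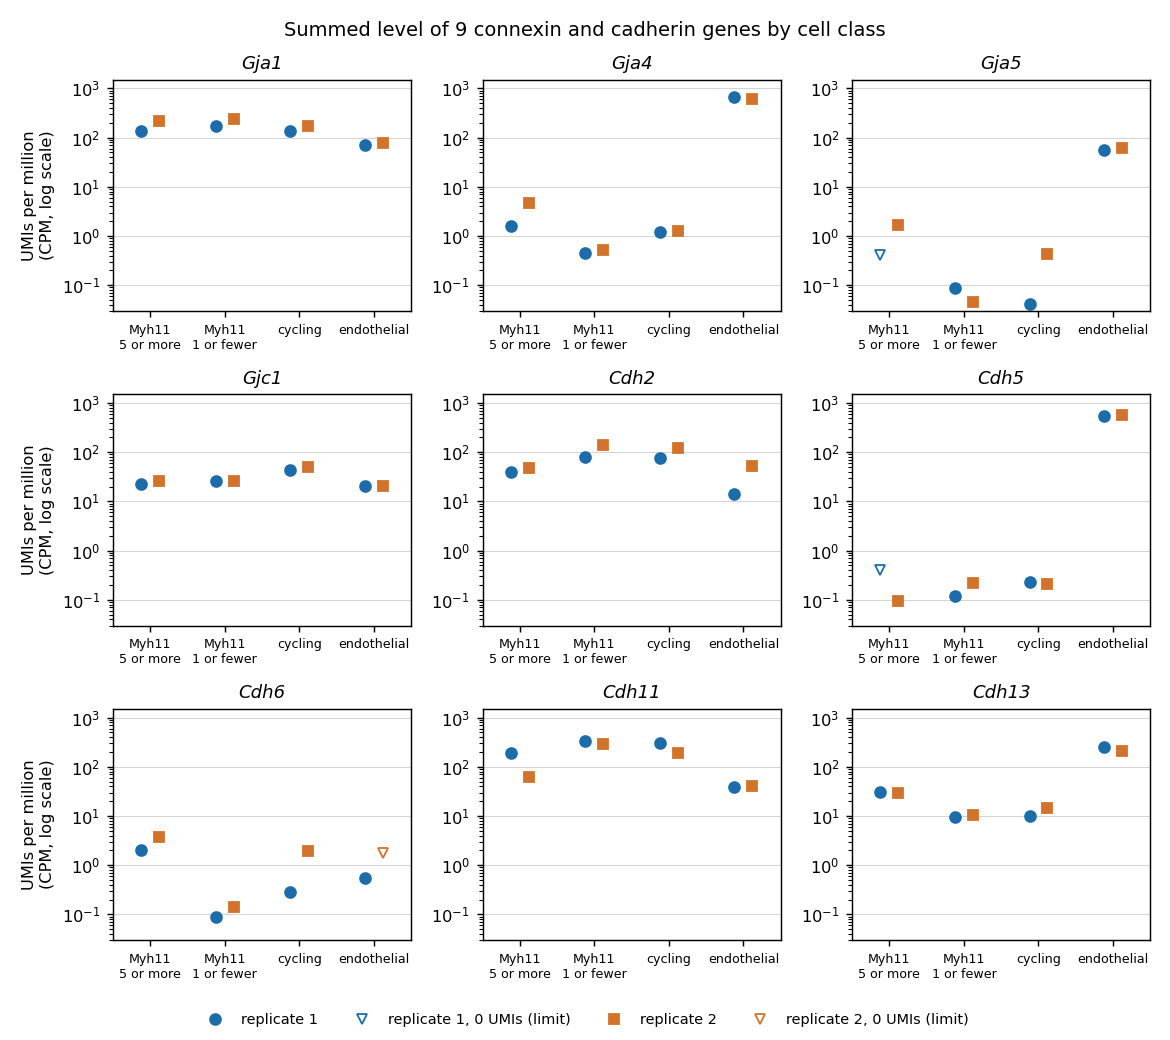
Level of each gene in CPM (log scale) in the 4 cell classes, with 1 point per library. Open triangles mark classes with 0 UMIs and stand at the level that 3 UMIs would give. *Gja4*, *Gja5*, *Cdh5* and *Cdh13* were highest in endothelial cells in both libraries, and *Gja1* and *Cdh11* were lowest there.

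ECs differed from the other classes in 7 of the 9 genes. *Cdh5*, *Gja4*, *Gja5* and *Cdh13* rose, and *Cdh11*, *Gja1* and *Gjc1* fell, each in both libraries. Of these, *Cdh5* entered the test only through its level in ECs. Of all genes tested, 26.4% passed in this contrast of ECs with the mean of the other 3 classes, 12.8% as higher and 13.6% as lower. The 9 genes were chosen with earlier results of these data known. Counts of them can therefore not be weighed against such shares, here or below. Without composition scaling, that is by library size alone, 2710 genes were higher and 1153 lower instead of 1815 and 1927, the median of all genes moved from -0.09 to 0.14 on the log2 scale, and the same 7 members passed in the same directions. The median of the 9 genes was -0.81.

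*Cdh5* encodes VE-cadherin of endothelial adherens junctions (ENSMUSG00000031871, chromosome 8, 104101625 to 104144511, plus strand; all positions are of GRCm38). Its level in ECs was 556 CPM in replicate 1 and 565 CPM in replicate 2. In the other classes it had between 0 and 14 UMIs per class and library, at most 0.23 CPM. ECs and the other classes did not overlap, and the log2 difference was 11.81 (SE 0.20, adjusted p = 5.55e-07, edgeR). *Cdh5* entered the test only through its level in ECs, so that this call adds nothing to the levels. The gene was found in 98.0% and 96.5% of ECs (exact 95% binomial intervals 93.0 to 99.8% and 92.0 to 98.9%, which cover counting error only). In Myh11-low cells, which should lack it, the share was 0.19% and 0.25%. After thinning each cell to 3000 UMIs it was 80.0% and 77.8% of ECs and 0.08% and 0.06% of Myh11-low cells.

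*Gja4* encodes Cx37 (ENSMUSG00000050234, chromosome 4, 127311421 to 127314039, minus strand). It stood at 680 and 612 CPM in ECs and was found in 87.1% and 79.7% of them. Cycling cells had 1.21 and 1.28 CPM, Myh11-high cells 1.61 and 4.62 CPM, and Myh11-low cells 0.45 and 0.53 CPM. The order ECs, Myh11-high, cycling and Myh11-low held without overlap of the libraries, and the log2 difference of ECs was 8.77 (SE 0.26, adjusted p = 4.95e-06, edgeR).

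*Gja5* encodes Cx40 (ENSMUSG00000057123, chromosome 3, 96904693 to 97077416, plus strand). Its level was 55.5 and 62.2 CPM in ECs, and it was found in 43.6% and 39.9% of them (33.7 to 53.8% and 31.8 to 48.4%). Elsewhere it had between 0 and 18 UMIs per class and library, at most 1.64 CPM. The log2 difference was 7.68 (SE 0.68, adjusted p = 0.000439, edgeR). Among the other classes the libraries overlapped. In Myh11-high cells of replicate 2, 11 of its 17 UMIs lay in 1 cell, and in replicate 1 it had 0 UMIs in 298 cells, a count that allows at most 0.40 CPM and a share of 1.01%.

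The start regions of the connexin genes that differed between ECs and the other classes are shown because *Gja4* and *Gja5* rose in ECs and *Gja1* fell. RefSeq (GRCm38.p6) gave start regions for 4 of the 9 genes, *Gja1*, *Gja4*, *Gja5* and *Cdh6*. The 250 bases before the start follow, 5′ to 3′ on the strand of the gene, with any match to an ETS or SOX motif in capitals (AGGAAG or ACAAT on either strand).
Gja4 (chr4:127314040-127314289, minus strand): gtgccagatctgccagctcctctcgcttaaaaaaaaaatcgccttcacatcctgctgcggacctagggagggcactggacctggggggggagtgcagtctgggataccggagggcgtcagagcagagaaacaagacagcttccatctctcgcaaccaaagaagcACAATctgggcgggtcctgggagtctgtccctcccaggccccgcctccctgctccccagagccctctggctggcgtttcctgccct
Gja5 (chr3:97032152-97032401, plus strand): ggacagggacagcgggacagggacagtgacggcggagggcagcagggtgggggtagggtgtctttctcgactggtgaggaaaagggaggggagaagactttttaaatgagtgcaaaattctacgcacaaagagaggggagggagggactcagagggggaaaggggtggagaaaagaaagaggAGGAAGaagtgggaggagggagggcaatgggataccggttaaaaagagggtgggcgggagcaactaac
Gja1 (chr10:56377050-56377299, plus strand): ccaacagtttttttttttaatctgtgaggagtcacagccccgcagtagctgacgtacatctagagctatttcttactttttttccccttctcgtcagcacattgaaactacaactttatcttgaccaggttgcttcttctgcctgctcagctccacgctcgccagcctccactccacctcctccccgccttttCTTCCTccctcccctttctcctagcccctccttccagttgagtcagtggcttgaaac
The searched motifs were AGGAAG for ETS factors, ACAAT for SOX factors, TATAAA for the TATA box and, by name, the CArG box of SRF. They were sought on both strands, and no matches overlapped in these windows. The *Gja5* window, which lies within the annotated gene before an inner start, held AGGAAG once on its own strand, the *Gja1* window once on the other strand, where it reads CTTCCT, and the *Gja4* window held ACAAT once and no AGGAAG. *Cdh6* (chr15:13173676-13173925, minus strand) held AGGAAG once. None of the 4 windows held TATAAA or a CArG box. Of 32851 RefSeq windows of this length, 29.5% held AGGAAG, 27.7% ACAAT, 12.4% TATAAA and 1.47% a CArG box, and a match describes the letters only.

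*Cdh13* encodes T-cadherin, which is held in the membrane by a lipid anchor and lacks the tail that binds catenins (ENSMUSG00000031841, chromosome 8, 118283733 to 119324921, plus strand, overlapping 1 other gene on its strand). Its level was 258 and 209 CPM in ECs, 30.7 and 29.3 CPM in Myh11-high cells, 9.94 and 14.7 CPM in cycling cells, and 9.37 and 10.3 CPM in Myh11-low cells. Only the last pair of classes overlapped between libraries. The rise in ECs was 3.69 on the log2 scale (SE 0.15, adjusted p = 1.44e-05, edgeR). The gene was found in 83.2% and 78.3% of ECs and in 14.1% and 13.2% of Myh11-low cells.

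*Cdh11* encodes OB-cadherin, a cadherin of mesenchymal cells (ENSMUSG00000031673, chromosome 8, 102632095 to 102785642, minus strand, where it overlaps 4 other annotated genes on its own strand, so that its counts are uncertain to that extent). It stood at 39.2 and 41.3 CPM in ECs, against 61 to 329 CPM in the other classes. The log2 difference was -2.63 (SE 0.49, adjusted p = 0.00917, edgeR). Few ECs carried these UMIs. In replicate 1, 9 of the 101 ECs had 3 or more *Cdh11* UMIs and held 87.1% of all *Cdh11* UMIs of the class. In replicate 2, 7 of the 143 ECs held 85.9%. These cells had a median of 38489 and 27291 UMIs, well above the medians of all ECs, and without them the level was 6.25 and 6.49 CPM. The cells were picked by their *Cdh11* UMIs, so that the level without them had to be lower, and deeper cells were likelier to be picked. Doublets were kept, and whether these were pairs of cells was not tested.

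*Gja1* encodes Cx43 (ENSMUSG00000050953, chromosome 10, 56377330 to 56402513, plus strand). It stood at 70.0 and 76.7 CPM in ECs, 133 and 174 CPM in cycling cells, 139 and 222 CPM in Myh11-high cells, and 170 and 241 CPM in Myh11-low cells. ECs lay below all other classes in both libraries (log2 difference -1.51, SE 0.25, adjusted p = 0.00550, edgeR), whereas the 3 other classes overlapped. Among ECs, 14 and 13 cells with 3 or more *Gja1* UMIs held 83.2% and 64.4% of the UMIs, at median depths of 37471.5 and 27291 UMIs. The level without them was 16.4 and 34.0 CPM, and it had to be lower, since the cells were picked by their *Gja1* UMIs.

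*Gjc1* encodes Cx45 (ENSMUSG00000034520, chromosome 11, 102799579 to 102819700, minus strand). Its level was 20.2 and 20.9 CPM in ECs, the lowest of the 4 classes, next to 22.6 and 26.4 CPM in Myh11-high cells. Against the mean of the other classes, which includes the higher cycling cells, it fell by 0.81 on the log2 scale (SE 0.14, adjusted p = 0.00609, edgeR). The margin over Myh11-high cells was small in replicate 1, where it was 20.2 against 22.6 CPM.

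The 2 genes that did not pass in ECs were *Cdh2* and *Cdh6*. *Cdh2*, the gene of N-cadherin (ENSMUSG00000024304, chromosome 18, 16588877 to 16809246, minus strand), had 14.0 and 52.3 CPM in ECs, libraries further apart in ratio than in any other class. Among ECs, 2 and 13 cells with 3 or more *Cdh2* UMIs held 28.0% and 65.6% of the UMIs. The level without them was 10.4 and 21.8 CPM, and it had to be lower, since the cells were picked by their *Cdh2* UMIs. The log2 difference of *Cdh2* was -1.47 (SE 0.51, adjusted p = 0.0746, edgeR). In the paired fit, where the library enters as a block, it passed (-1.52, SE 0.26, adjusted p = 0.00264, edgeR, the lowest of a range up to 0.116 over 18 settings), and 38.3% of all genes were then called. *Cdh6*, the gene of K-cadherin (ENSMUSG00000039385, chromosome 15, 13028701 to 13173675, minus strand), had 1 UMI in the ECs of replicate 1 and 0 in those of replicate 2, where a count of 0 allows up to 1.74 CPM. No difference was detectable at this depth (adjusted p = 0.567, edgeR).

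**Figure D2:**
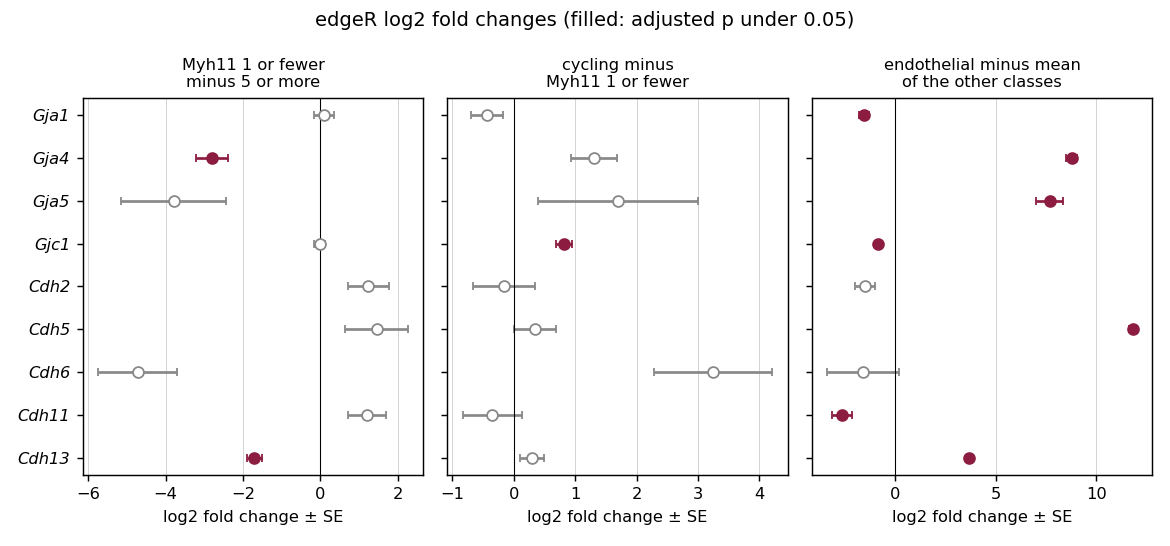
log2 fold changes with SE (bars) of the 9 genes in the 3 contrasts, from edgeR on 8 sums; filled points have an adjusted p under 0.05, and the horizontal scale differs between panels. Myh11-low cells were lower in *Gja4* and *Cdh13*, cycling cells were higher in *Gjc1*, and 7 genes passed in endothelial cells.

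The junction genes that work with these members were given by lists. In ECs, 7 of 14 catenins and cadherin partners rose and 2 fell, beside 12.8% of all genes tested as higher and 13.6% as lower. The receptor phosphatase *Ptprb*, which binds VE-cadherin, stood at 357 and 270 CPM in ECs against 1.44 to 7.06 CPM elsewhere (log2 difference 5.94, SE 0.17, adjusted p = 3.96e-06, edgeR). *Ptprm* and plakoglobin (*Jup*) rose by 2.51 and 2.32 on the log2 scale, while vinculin (*Vcl*) and *Arvcf* fell by 1.69 and 1.55. Among the connexin partners, the scaffold gene *Tjp1* rose by 1.76, and the kinase gene *Src* and the ubiquitin ligase gene *Nedd4* fell by 1.26 and 0.37. The median change was 0.29 in the catenin list and -0.09 over all genes.

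Of 8 tested nectins and junctional adhesion molecules, *Ocln*, *Esam* and *F11r* rose in ECs, and *Nectin3* and *Jam3* fell by 2.05 and 0.87. *Esam* stood at 380 and 370 CPM in ECs, and *F11r* at 35.3 and 43.0 CPM. Occludin (*Ocln*) had 35 and 29 UMIs in ECs and 1 UMI in the 3 other classes of both libraries together. It entered the test only through ECs, so that its call adds nothing to these UMIs. Other family members were scarce. Of 19 other connexins and pannexins 7 could be tested and 1 passed, the lens connexin *Gja3*, which was lower in ECs. It had 0 UMIs there, which allows up to 1.68 and 1.74 CPM, a range that includes some levels of the other classes (1.15 to 2.69 CPM). Of 18 other cadherins 7 could be tested. *Cdh23* rose (3 and 1 UMIs in ECs, a mean of 0.05 to 0.30 CPM elsewhere), and *Cdh18* fell (0 UMIs in ECs, 1.75 to 4.33 CPM elsewhere). *Cdh23* reached the level needed for the test mainly in ECs, so that its call adds nothing to these few UMIs. In this contrast 26.4% of all genes tested passed, and 7 tested genes per family are too few to compare with that share.

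Between Myh11-high and Myh11-low cells, 2 of the 9 genes passed, and both fell in Myh11-low cells. Whether all Myh11-low cells came from smooth muscle was not tested. Of all genes tested, 3.51% passed (1.04% higher and 2.47% lower in Myh11-low cells), and the median was -0.01 over the 9 genes and 0.03 over all genes. *Cdh13* fell by 1.70 on the log2 scale (SE 0.20, adjusted p = 0.0136, edgeR), from 30.7 and 29.3 CPM to 9.37 and 10.3 CPM. It was found in 36.6% and 39.6% of Myh11-high cells, or 8.99% and 9.05% after thinning, and in 2.66% and 3.15% of Myh11-low cells after thinning. *Cdh13* passed in each of the 19 alternative settings with a test.

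*Gja4* fell by 2.80 (SE 0.41, adjusted p = 0.0220, edgeR). These were few molecules. Myh11-high cells had 12 UMIs in 10 cells of replicate 1 and 48 UMIs in 25 cells of replicate 2, and Myh11-low cells had 26 UMIs in 20 cells and 34 UMIs in 21 cells, 12 of them in 1 cell. *Gja4* was thus found in 3.36% and 4.78% of Myh11-high cells and in 0.75% and 0.53% of Myh11-low cells. In cells with no UMI of the 4 endothelial genes, *Gja4* had 11 and 47 UMIs in Myh11-high cells (1.78 and 4.84 CPM) and 24 and 18 UMIs in Myh11-low cells (0.51 and 0.32 CPM), and the difference was -3.17 (SE 0.44, adjusted p = 0.0151, edgeR). It did not pass where ECs needed 3 of the 4 genes, so that cells with 2 of them entered the other classes (-0.56, SE 0.53, adjusted p = 0.659, edgeR), nor where the other classes were left out of the fit (-2.78, adjusted p = 0.137, edgeR), and it was left with no difference where free RNA was subtracted by 8 endothelial genes. Over the 19 settings, the adjusted p ran from 7.56e-10 to 1.00.

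*Cdh6* missed the threshold at a larger difference. Myh11-high cells had 15 UMIs in 9 cells of replicate 1 and 39 UMIs in 33 cells of replicate 2 (2.02 and 3.75 CPM). Myh11-low cells had 5 and 9 UMIs in far more cells (0.09 and 0.14 CPM). The 2 classes did not overlap, and the log2 difference was -4.72 (SE 1.02, adjusted p = 0.0612, edgeR). In the paired fit it was 0.00236 (edgeR), and over 19 settings it ran from 0.000375 to 0.257 and passed in 7.

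*Cdh11* and *Cdh2* ran the other way without passing. *Cdh11* stood at 192 and 60.8 CPM in Myh11-high cells and at 329 and 288 CPM in Myh11-low cells (log2 difference 1.20, SE 0.49, adjusted p = 0.259, edgeR). *Cdh2* stood at 39.96 and 47.4 CPM in Myh11-high cells and at 79.0 and 143 CPM in Myh11-low cells (1.25, SE 0.52, adjusted p = 0.275, edgeR). Neither gene overlapped between these classes. In the paired fit both passed: *Cdh11* at 1.36 (SE 0.31, adjusted p = 0.0179, edgeR, range over 19 settings 0.0179 to 0.704) and *Cdh2* at 1.21 (SE 0.22, adjusted p = 0.00741, edgeR, range 0.00741 to 0.281). With this pairing, 5 of the 9 genes passed, beside 22.5% of all genes. *Gja1* (0.09, SE 0.26, adjusted p = 0.905, edgeR) and *Gjc1* (-0.01, SE 0.14, adjusted p = 0.982, edgeR) showed no difference beyond the spread, and *Gja5* (adjusted p = 0.201, edgeR) and *Cdh5* (adjusted p = 0.551, edgeR) had too few UMIs for a fold change.

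*Cdh2*, *Cdh11* and *Cdh13* were also followed by the number of *Myh11* UMIs, as a description with no test. Among cells that were neither cycling nor ECs, *Cdh11* went from 324 CPM in cells with 0 *Myh11* UMIs to 95.1 CPM in cells with 20 or more in replicate 1, and from 293 to 59.3 CPM in replicate 2. *Cdh2* went from 80.7 to 26.1 CPM and from 146 to 33.8 CPM. *Cdh13* went from 8.49 to 41.7 CPM and from 9.86 to 39.9 CPM. *Cdh2* was lower at every step in both libraries, and *Cdh13* was higher at every step of replicate 1 but went from 24.7 to 24.0 CPM at 1 step of replicate 2. *Cdh11* did not fall at every step, with 366 CPM at 1 *Myh11* UMI in replicate 1, and it changed at different steps in the libraries: cells with 5 to 9 *Myh11* UMIs still had 280 CPM in replicate 1 but 67.2 CPM in replicate 2. *Gja1* had no such order, with 174 and 186 CPM at the ends in replicate 1 and 244 and 190 CPM in replicate 2. Depth differed between the ends too, with medians of 19561 and 26614 UMIs per cell in replicate 1 and 14416 and 21516 in replicate 2. The part of depth in these levels, which are scaled to it, was not tested.

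**Figure D3:**
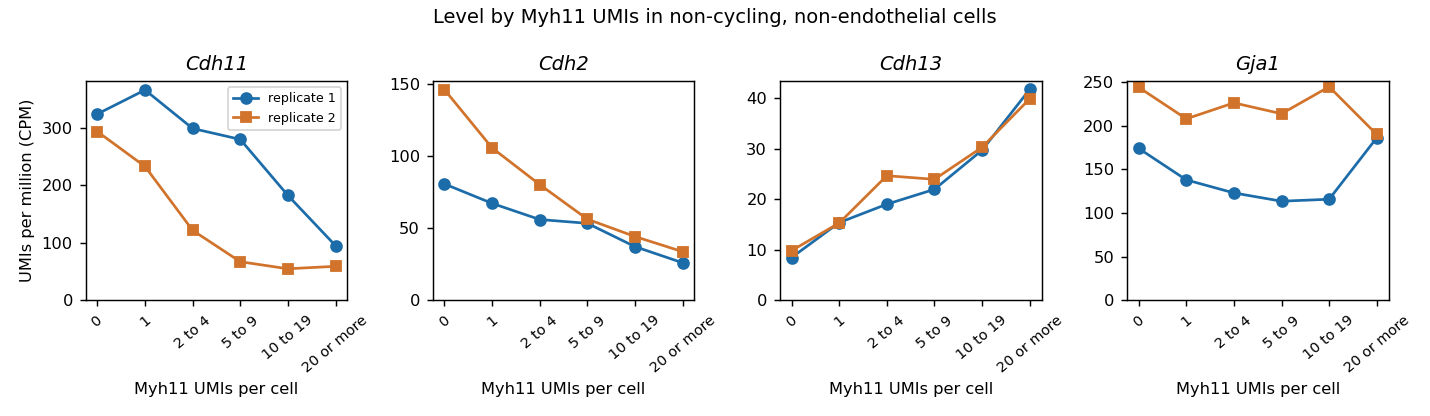
Level (CPM) of 4 genes by the number of *Myh11* UMIs per cell, in cells that were neither cycling nor endothelial, with 1 line per library. *Cdh2* ran from 80.7 to 26.1 CPM and from 146 to 33.8 CPM, *Cdh13* ran upward to 41.7 and 39.9 CPM, and *Gja1* showed no steady order.

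Of the other junction genes, 4 passed between Myh11-high and Myh11-low cells, beside 3.51% of all genes tested. Of 14 catenins and cadherin partners 1 rose and 1 fell in Myh11-low cells. Of 7 tested other cadherins 1 fell, and of 8 tested nectins and junctional adhesion molecules 1 fell. *Esam* fell in Myh11-low cells from 12.6 and 10.2 CPM to 0.35 and 0.84 CPM (log2 difference -4.34, SE 0.54, adjusted p = 0.0147, edgeR). *Jup* fell by 0.91, and P-cadherin (*Cdh3*) fell from 23 and 28 UMIs (3.09 and 2.69 CPM) to 28 and 15 UMIs in the larger class (0.49 and 0.23 CPM). *Ptprb* rose by 1.66, from a mean of 2.00 CPM (19 and 15 UMIs) to 6.01 and 7.06 CPM (346 and 455 UMIs in the larger class). None of the connexin partners or the 7 tested other connexins and pannexins passed at an adjusted p under 0.05 with edgeR.

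Cycling cells differed from Myh11-low cells in 1 of the 9 genes, beside 5.03% of all genes (4.85% higher and 0.183% lower). The median was 0.34 over the 9 genes and -0.03 over all genes. *Gjc1* rose from 26.0 and 25.7 CPM in Myh11-low cells to 43.0 and 49.5 CPM in cycling cells (log2 difference 0.82, SE 0.14, adjusted p = 0.0162, edgeR). The classes did not overlap. It was found in 67.0% and 61.7% of cycling cells and in 39.1% and 31.5% of Myh11-low cells. Cycling cells were deeper, and after thinning the shares were 12.4% and 14.2% against 7.59% and 7.80%. The rise passed in 18 of 19 alternative settings. The exception was the subtraction of free RNA at a share estimated from 8 endothelial genes (adjusted p = 0.339, edgeR).

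Cycling cells held cells of both *Myh11* classes, 176 and 357 with at least 5 *Myh11* UMIs and 1274 and 1371 with at most 1, and *Gjc1* was compared within each. In cells with at least 5 *Myh11* UMIs it was 39.4 and 52.1 CPM when cycling, against 22.6 and 26.4 CPM, a log2 difference of 0.80 (SE 0.16, adjusted p = 0.0491, edgeR, beside 4.97% of 13401 genes). In cells with at most 1 it was 43.3 and 48.2 CPM when cycling, and the log2 difference was also 0.80 (SE 0.16, adjusted p = 0.0399, edgeR, beside 5.55%). The 2 effects differed by 0.00 (SE 0.23, adjusted p = 1.00 for the interaction, edgeR, beside 0 of 13401 genes called). With no gene called, this p does not show that the effects were equal.

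The *Gjc1* level also went with the number of the 4 cycling genes found with at least 2 UMIs. In cells with at most 1 *Myh11* UMI it was 25.4, 29.5, 34.2, 46.5 and 44.4 CPM for 0, 1, 2, 3 and 4 genes in replicate 1, and 24.9, 30.8, 39.99, 51.7 and 49.2 CPM in replicate 2. In cells with at least 5 it was 21.9, 25.9, 31.5, 29.6 and 42.6 CPM in replicate 1 and 25.0, 33.6, 40.1, 59.9 and 53.3 CPM in replicate 2. Cells with 4 of these genes were above those with 0 in each of these series, but the level did not rise at every step. Depth also moved with this number: in cells of replicate 1 with at most 1 *Myh11* UMI the median was 19469 UMIs for 0 genes and 30734 UMIs for 4. Its part in the *Gjc1* levels, which are scaled to depth, was not tested.

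**Figure D4:**
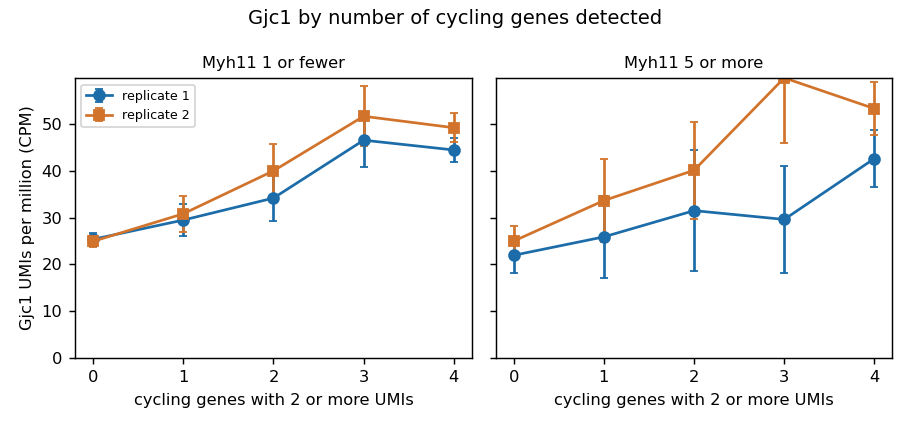
*Gjc1* level (CPM) by the number of the 4 cycling genes with at least 2 UMIs, in cells with at most 1 (left) and at least 5 (right) *Myh11* UMIs, 1 line per library. Bars are approximate 95% intervals for counting error only; cells with all 4 cycling genes had between 42.6 and 53.3 CPM and cells with none between 21.9 and 25.4 CPM.

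The other 8 genes did not pass in cycling cells. *Cdh6* had 14 and 84 UMIs there (0.29 and 1.98 CPM; log2 difference 3.24, SE 0.97, adjusted p = 0.156, edgeR) and *Gja4* 58 and 54 UMIs (1.21 and 1.28 CPM; 1.31, SE 0.38, adjusted p = 0.140, edgeR). Both levels lay with the cycling cells that had at least 5 *Myh11* UMIs: these held 9 and 63 of the *Cdh6* UMIs and 38 and 40 of the *Gja4* UMIs, and cycling cells with at most 1 held 2 and 4 *Cdh6* UMIs and 15 and 12 *Gja4* UMIs. Counted only in cycling cells with at most 1 *Myh11* UMI, the log2 differences were -0.33 for *Cdh6* and -0.31 for *Gja4*. In the paired fit, 4 of the 9 genes passed beside 21.0% of all genes: *Gjc1*, *Cdh6* (3.097, SE 0.62, adjusted p = 0.0118, edgeR, range over 19 settings 0.0118 to 0.949), *Gja4* (1.31, SE 0.33, adjusted p = 0.0276, edgeR, range 0.0129 to 1.00) and *Gja1*, which fell (-0.43, SE 0.10, adjusted p = 0.0230, edgeR, range 0.0230 to 0.643). Of the 5 lists of other junction genes, none held a gene that passed in cycling cells at an adjusted p under 0.05 with edgeR.

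Within ECs, *Gja5* and *Gja1* were found in different shares of the cells with and without *Prox1*, the transcription factor gene of lymphatic endothelium. This split was chosen after the values had been seen, and it is given as counts without a test. A *Prox1* UMI was found in 19 and 18 ECs and a *Gja5* UMI in 44 and 57, but both in 0 and 1 cell, where independent detection would give 8.28 and 7.17 cells. *Gja5* was found in 53.7% and 44.8% of ECs without *Prox1* (exact 95% intervals 42.3 to 64.7% and 35.9 to 54.0%). With *Prox1* it was found in 0 of 19 cells (exact 95% interval 0 to 17.6%) and in 5.56% (0.14 to 27.3%).

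*Gja1* went the other way. It was found in 68.4% and 72.2% of ECs with *Prox1* (43.4 to 87.4% and 46.5 to 90.3%) and in 20.7% and 28.8% of those without (12.6 to 31.1% and 21.1 to 37.6%). The levels were 122 and 97.7 CPM against 55.3 and 73.0 CPM, so that the levels lay nearer than the shares. The cells with *Prox1* were somewhat deeper (median 18203 and 12192 UMIs against 14285.5 and 8990). *Gjc1* was found in 7 of 19 and 9 of 18 cells with *Prox1* and in 18 of 82 and 20 of 125 cells without. *Gja4* was found in 94.7% and 72.2% with *Prox1* and in 85.4% and 80.8% without, so that its share had no common direction in the libraries, at levels of 499 and 391 CPM against 731 and 650 CPM. *Cdh5* was found in all 19 and 18 cells with *Prox1*. *Sox17*, a transcription factor gene of arterial endothelium, was found in 26.3% and 16.7% of the cells with *Prox1* and in 73.2% and 68.8% of those without, and the lymphatic receptor gene *Flt4* in 63.2% and 61.1% against 39.0% and 20.8%. *Lyve1*, the other gene of the lymphatic list, was found in 3 of the 19 cells with *Prox1* in replicate 1 and in 0 of the 18 in replicate 2, and in 1 cell without *Prox1* in each library. Leaving the cells with *Prox1* out of the ECs changed the call of none of the 9 genes in the contrast of ECs with the other classes.

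**Figure D5:**
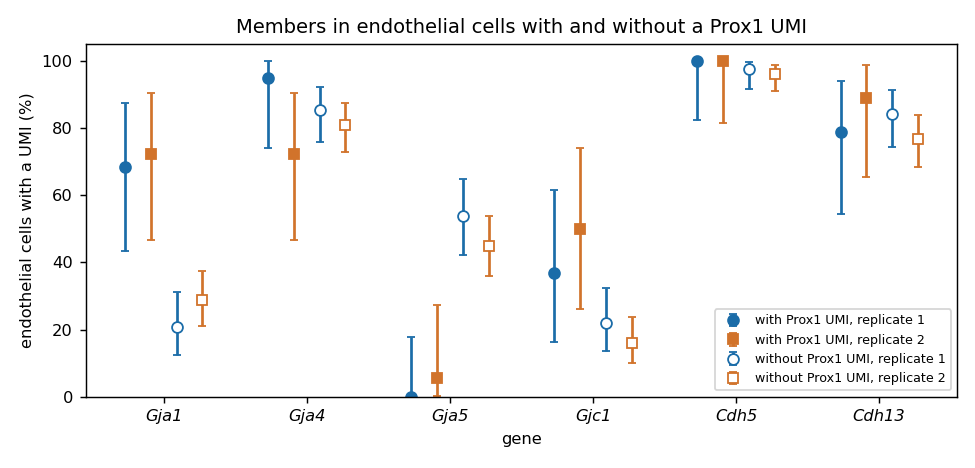
Share of endothelial cells with a UMI of 6 genes, in cells with (filled) and without (open) a *Prox1* UMI, by library. Bars are exact 95% binomial intervals and cover counting error only; *Gja1* was found in 68.4% and 72.2% of the cells with *Prox1*, and *Gja5* in 0 of 19 and in 5.56%.

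Pairs of the members were also counted in single cells, against the number that independent detection gives among cells of like UMI total. In ECs, *Gja4* and *Gja5* shared 44 and 53 cells, 1.10 and 1.15 times that number, and *Gja1* and *Gja5* shared 10 and 14 cells, 0.758 and 0.679 times. In Myh11-high cells, *Cdh2* and *Cdh11* shared 121 and 135 cells, 1.13 and 1.15 times. In cycling cells, *Cdh11* and *Cdh13* shared 269 and 289 cells, 0.944 and 0.856 times. For this pair the ratio was 0.821 and 1.07 in Myh11-high cells and 1.01 and 1.01 in Myh11-low cells. Cycling cells held cells of both *Myh11* levels, and the part of this mixture in their ratio was not tested. Only members found in at least 5% of the cells of a class were paired, which left out *Cdh6* in each class and *Gja4*, *Gja5* and *Cdh5* outside ECs, and over the pairs counted the ratio ran from 0.679 to 1.60. The named pairs were chosen after their values were seen, and the counts carry no test.

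Across the 8 sums, the 3 genes most like each member were taken from 9782 genes with a mean of at least 5 CPM, by the Pearson correlation of log2(CPM + 1). *Gja4* went with *Bmp6* (0.998), *Atp2a3* and *Fam3c*, *Gja5* with *Enpp6* (0.997), *Gpm6a* and *Gja4* (0.995), and *Cdh13* with *Esam* (0.998), *Selp* and *Mtus1*. *Cdh5* went with *Sigirr*, *Lyl1* and *Hhex*, the first at 0.9998. *Cdh11* went with *Epha3* (0.994), *Gng8* and *H6pd*, and *Gjc1* with *Ndufaf2* (0.995), *Pradc1* and *Cchcr1*. *Gja1* went with *Emc9* (0.990), *Sqle* and *Zfp938*, *Cdh2* with *Prelid1* (0.983), *Ap2s1* and *Pi4ka*, and *Cdh6* with *Mgll* (0.976), *Xk* and *Dusp14*. The sums share libraries and cultures, and ECs stood far from the other classes in *Gja4*, *Gja5*, *Cdh5* and *Cdh13*.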

How the data were processed

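Primary aortic VSMCs were profiled with 10x Genomics droplets. Per the submitters' processing notes, reads were aligned to mm10 with Cell Ranger 3.0.2; the headers of the deposited matrices name version 3.0.2 (replicate 1) and 3.1.0 (replicate 2). The authors deposited UMI counts per gene and barcode as whole numbers, without normalization and with empty droplets. The depth of a library is its UMI sum, 127949633 and 132561822. Positions are from GENCODE M21 of GRCm38, which held 30934 of 31053 gene IDs.

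From these counts, cells were filtered and classed as described, and counts were summed per class and library. CPM and shares were computed with Python 3.11.15, numpy 2.4.6, scipy 1.17.1 and pandas 2.3.3. Sums were tested with edgeR 4.0.16 in R 4.3.3 (TMM normalization, genes kept by filterByExpr, quasi-likelihood F test, Benjamini-Hochberg adjustment, threshold 0.05); each SE is the absolute log2 change divided by the root of its F. DESeq2 1.42.0 was an alternative. Doublets were kept and no doublet caller was run. Free RNA was estimated from barcodes with at most 100 UMIs. Thinned shares are expected values at 3000 UMIs per cell. A count of 0 allows up to 3 counts. Intervals and this limit cover counting error only. Single-library differences are of log2 CPM, without a test.

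The 9 genes and the lists were chosen with earlier results of these data known. All 9 genes were named; from the lists, up to 3 genes per direction with the largest change past the threshold and the same direction in both libraries; and 3 genes most like each member. 1 result of the connexin partner list is not reported here. The split by *Prox1* and single counts named beside it were chosen after the values were seen.

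The classes of a library were cells of 1 culture, and the library number therefore pairs their sums. As a check, departures from class means correlated between classes of a library at 0.226 to 0.784 over 14201 genes. The paired fit, with this number as a block, is given where it changed a call. On simulated counts, changes of 4-fold were recovered in 76.0% of cases for Myh11-low against Myh11-high cells (13955 genes), 80.8% for cycling against Myh11-low cells (13953 genes) and 76.8% for ECs (13942 genes), and changes of 2-fold in 24.5%, 27.0% and 39.8%. Only these sizes of change were put in. The counts of each sum were drawn independently around 1 mean per gene over all classes, without a shared library effect, and the paired fit was not run on them.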

Additional observations from a re-analysis of the deposited data

How the results depend on the processing

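With the library number as a block, which pairs the sums of the same culture, 3194 genes and 5 of the 9 members passed for Myh11-low against Myh11-high cells instead of 498 and 2, 2980 genes and 4 members for cycling against Myh11-low cells instead of 715 and 1, and 5436 genes and 8 members for ECs instead of 3742 and 7; the calls it changed are given with the genes, and it changed no other call. DESeq2 called 1341 genes and 1222 genes in the first pair of contrasts, with 3 members in the second. For Myh11-low against Myh11-high cells, fitting only the classes compared gave 110 of 13590 genes and 1 member. In the same contrast, *Myh11* limits of 10 and 0 UMIs gave 1129 genes. There, 1 member passed with ECs by 3 of 4 genes, beside 448 of 14174 genes. With free RNA subtracted by 8 endothelial genes it was 1 member, beside 422 of 13401 genes. For cycling cells, 2 members passed with cycling by 3 of 4 genes, beside 733 of 14068 genes. With free RNA subtracted by 8 genes, 229 of 13401 genes and 0 members passed, and 1694 genes had an unadjusted p under 0.05 in edgeR. This estimate assumes that Myh11-low cells make none of these genes and put free RNA at 71.6% and 56.3% of their UMIs, but *Ecscr* alone gave 1134 of the 1401 and 535 of the 829 UMIs behind it, and the assumption was not tested; an estimate from *Tie1*, *Robo4* and *Sox17*, added after seeing the data, rested on 11 and 20 UMIs, put it at 7.91% and 3.74%, and changed no count by over 1.5 times. In that 8-gene setting *Cdh11* (adjusted p = 0.117, edgeR) and *Gjc1* (adjusted p = 0.0522, edgeR) did not pass in ECs. The cause of these changes was not tested.

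No called member turned in direction under the alternatives run, though *Gja4* in Myh11-low against Myh11-high cells was at 0 with free RNA subtracted by 8 genes. Of those not called, *Gjc1* in Myh11-low against Myh11-high cells turned to 0.0756 by library size alone, 0.0283 with every gene that had a count, 0.0779 with free RNA subtracted by 8 genes and 0.0353 in cells with no UMI of the 4 endothelial genes. With cycling cells limited to at most 1 *Myh11* UMI, the differences from Myh11-low cells were -0.31 for *Gja4*, -0.52 for *Gja5*, 0.0226 for *Cdh2*, -0.23 for *Cdh5*, -0.33 for *Cdh6* and -0.29 for *Cdh13*. With ECs by 3 of 4 genes they were -0.44 for *Gja4* and -0.38 for *Cdh5*, and without the 5% of cells with the most UMIs -1.10 for *Cdh5*. In single libraries (leaving the other out), the difference of log2 CPM was -1.87 and -3.12 for *Gja4* and -1.71 and -1.51 for *Cdh13* in Myh11-low cells, 0.73 and 0.95 for *Gjc1* in cycling cells, and 2.25 in replicate 2 but 0.78 in replicate 1 for *Cdh11* in Myh11-low cells. Outside ECs, *Gja5*, *Cdh5* and *Cdh6* rest on at most 84 UMIs per class and library. On simulated counts, changes of 4-fold were found in most cases and changes of 2-fold in 24.5% to 39.8% of cases. Those counts had no shared library effect, and the recovery of genes near 0 in a class or in the paired fit was not tested.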
